A study of Caenorhabditis elegans with 2 samples.

Results

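The genes described here are znf-622 and 6 other genes of late large-subunit maturation: nmd-3, eif-6, sbds-1, nog-1, ngp-1 and nst-1. They were chosen by name, and each was examined for peak summits from 1000 bp upstream to 200 bp downstream of its annotated 5′ end, here called its promoter window. They are 7 of 19973 protein-coding genes on the nuclear chromosomes. The symbol nmd-3 has no entry in the annotation, and the gene was identified as T25G3.3, which RefSeq describes as the 60S ribosomal export protein NMD3. The data are chromatin immunoprecipitation sequencing peak lists from whole first-stage (L1) larvae of Caenorhabditis elegans, males and females pooled, of strain OP345. This strain has the genotype unc-119(ed3) III; wgIs345, an insertion that expresses an eGFP fusion of C16A3.4, which is znf-622 itself. Both samples, biological replicates 1 and 2, carry the same alleles, and no untreated, untagged or second group was used here. The labels give neither the promoter of the fusion nor the region of the genome that the insertion holds, and larvae were taken whole, so no cell type is resolved.

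The large (60S) ribosomal subunit is put together in the nucleolus, exported through the nuclear pore and finished in the cytoplasm, where a series of assembly factors is removed one after another. In yeast, the GTPases Nog1 and Nog2, relatives of nog-1 and ngp-1, act on nuclear precursors, as does the GTPase family of nst-1, whose human relative is nucleostemin. Nmd3 carries an export signal for the exportin Crm1. In the cytoplasm Rei1, the yeast relative of ZNF622, helps to release an export factor, and the SBDS protein helps to remove eIF6, which until then keeps the 60S subunit from joining the 40S subunit. Chromatin immunoprecipitation locates the tagged protein on DNA. The association of a ribosome assembly factor with DNA is not part of these textbook roles.

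Peaks came in 4 lists on the ce11 build: 30000 peaks called on replicate 1, 30000 on replicate 2, 21096 on both together (the pooled list), and a shorter thresholded list that the authors kept by the reproducibility of peaks (irreproducible discovery rate, IDR). The replicate and pooled lists are relaxed and hold background as well as peaks. Each peak carries the authors' signal value, whose scale is not stated. Its median was 85.0 in the thresholded list, 19.7 in the pooled list, 10.7 in replicate 1 and 9.89 in replicate 2. Signals were therefore compared through ranks within a list or side by side. Ratios between the replicates were set against those of all matched thresholded peaks. The lists give no read counts, and the depth behind each peak is unknown.

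Of the 7 genes, nmd-3, eif-6, nog-1 and nst-1 had a thresholded summit in the promoter window, and znf-622, sbds-1 and ngp-1 had none. Among all protein-coding genes, 13.7% had one. In the pooled list 5 of the 7 genes had a summit, the fifth being sbds-1 with a weak peak, against 36.5% of all protein-coding genes. Replicate 1 and replicate 2 each had a summit at the same 4 genes as the thresholded list, where the shares of all protein-coding genes were 43.3% and 42.9%. The genes were chosen with earlier results of these data known, and the counts are given as a description without a test.

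**Figure D1:**
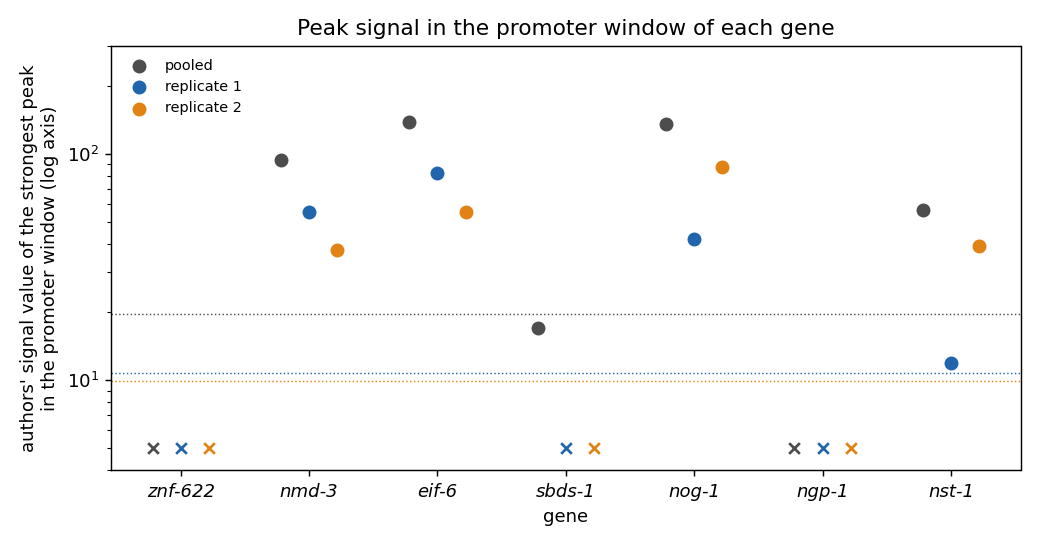
Authors' signal value (log axis) of the strongest peak in the promoter window of each gene, for the pooled list and both replicates; a cross at the bottom marks a gene with no summit in the window, and dotted lines mark the median signal of each list. The peaks of nmd-3, eif-6, nog-1 and nst-1 lie above the medians in all 3 lists, sbds-1 has only a pooled peak below the median, and znf-622 and ngp-1 have none.

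The tagged gene, znf-622, encodes a C2H2 zinc finger protein and lies on the forward strand of chromosome III, positions 6381634 to 6382996. It had no summit in its promoter window in any of the 4 lists. The nearest summit lay 23658 bp downstream of its 5′ end in the thresholded list (signal 50.2, rank 3092), 16470 bp downstream in the pooled list (16.5, rank 14977), 15668 bp downstream in replicate 1 (9.90, rank 17981) and 12574 bp downstream in replicate 2 (8.12, rank 21313). All of these nearest peaks were thus far outside the gene and low in their lists. On the upstream side the first summit lay 36.7 kb away in the thresholded list and was strong there (signal 225, rank 210). In the pooled list it lay 35.9 kb away, in replicate 1 35.3 kb and in replicate 2 34.1 kb.

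The 5′ end of znf-622 therefore lay in an interval of 46.7 kb without a summit of any list, from position 6347535 to 6394208 of chromosome III. Over the summits of all 4 lists, neighbouring summits were a median of 626 bp apart, and 5 of 78555 intervals between them were as long as this one. The lists often call the same peak a few bases apart, which adds short intervals and makes long ones look rarer. The median protein-coding gene sat in an interval of 2.74 kb, and 0.436% of protein-coding genes (87, the 11 of this interval included) sat in one of 46.7 kb or more. Within each replicate alone the interval was 50.95 kb and 46.7 kb, and 4 of 29994 intervals of replicate 1 and 10 of 29994 of replicate 2 were as long. Within the pooled list it was 52.4 kb, and 23 of 21090 intervals were as long. The median interval was 2059 bp in replicate 1, 1858.5 bp in replicate 2 and 2556.5 bp in the pooled list. In the pooled list 1.71% of genes sat in an interval as long or longer. Within the thresholded list, which is sparse, the interval around znf-622 was unremarkable: 60.4 kb, with 49.3% of genes in an interval as long or longer. The summit-free stretch is thus a feature of the relaxed lists, and it appears in both replicates.

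**Figure D2:**
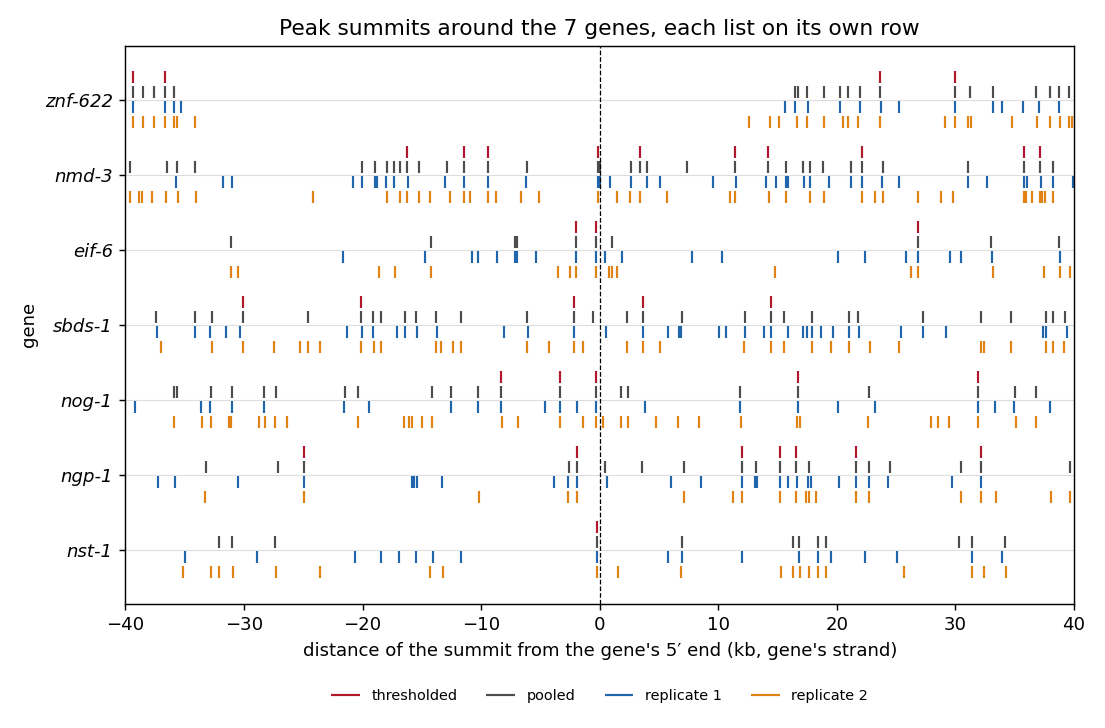
Positions of peak summits within 40 kb of the 5′ end of each gene (x axis in kb, along the gene's strand), with a row of ticks for each of the 4 lists. At znf-622 no list has a tick between 34.1 kb upstream and 12.6 kb downstream, whereas the 6 other genes have ticks of all 4 lists within 5 kb.

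The summit-free interval held the 5′ ends of 11 protein-coding genes. C16A3.6, a homolog of the 60S assembly factor MAK16, lies upstream of znf-622 on the same strand. let-716 follows downstream and encodes the RRP5 homolog, a factor of ribosomal RNA processing. rps-13, on chromosome III at positions 6374097 to 6374997, encodes the small-subunit protein uS15. Of 31 rps genes, 29 (93.5%) had a summit in the promoter window in each of the 4 lists, where the shares of all protein-coding genes were 13.7% (thresholded), 36.5% (pooled), 43.3% (replicate 1) and 42.9% (replicate 2), and rps-13 was among the 2 without. The other genes of the interval were akap-1, thoc-2, C56G2.15, nfx-1, C16A3.5, C16A3.2 and smrc-1. These genes were picked out after the interval was seen. The strain carries C16A3.4 in its transgene as well as at its own locus, and read coverage over the interval was not analysed here. The labels do not say whether any region was masked or filtered before the lists were made, so an interval without summits does not show an absence of binding at znf-622, rps-13 or the other genes in it. The cause of the empty interval was not tested.

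The gene unc-119, which carries the allele ed3 in this strain, was surrounded by an ordinary density of peaks. The labels do not say whether the insertion holds a copy of unc-119, so its locus is not a matched comparison for znf-622. Its 5′ end lay in an interval of 1.57 kb, shorter than the median, and 43 summits of the 4 lists lay within 20 kb, against a median of 32 over protein-coding genes. Around znf-622 the same distance held 13 summits, all of them downstream, and 5.36% of genes had as few. These counts include a peak once for each list that calls it. List by list, the share of genes with as few was 33.7% (thresholded), 18.6% (pooled), 2.75% (replicate 1) and 14.9% (replicate 2), so only replicate 1 was unusually sparse. Over the 4 lists together, the other 6 genes had between 30 (nst-1) and 76 (nmd-3) summits within 20 kb. Among these 7 genes only znf-622 fell below 30.

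**Figure D3:**
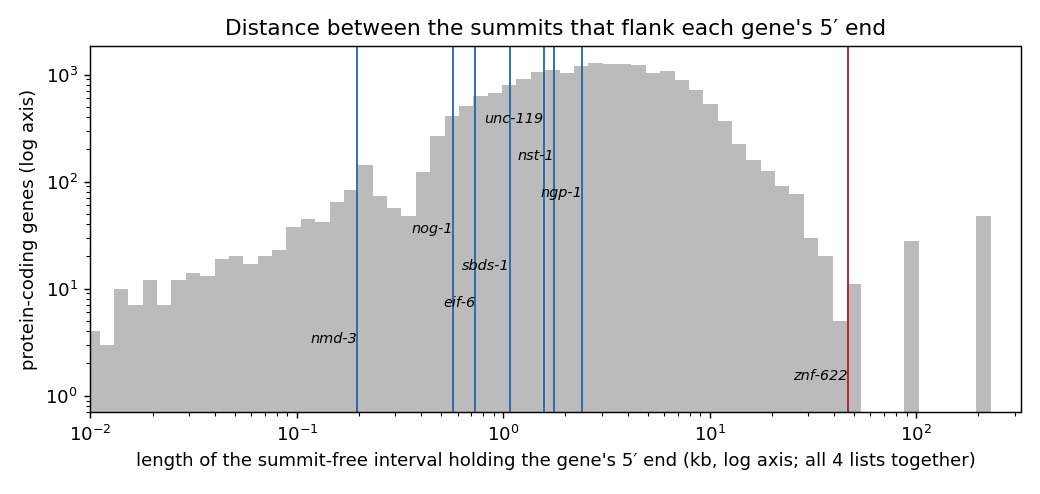
Histogram over protein-coding genes (log y axis) of the length of the summit-free interval that holds the gene's 5′ end (log x axis, kb, all 4 lists together), with a vertical line for each gene and for unc-119. The line of znf-622, at 46.7 kb, stands at the right tail and the lines of the other genes lie between 0.196 and 2.41 kb.

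Upstream of znf-622, 116 bases separate its 5′ end from the gene C16A3.5, and nfx-1, C16A3.6, C16A3.5 and znf-622 follow each other on the same strand with gaps of at most 500 bp. Such close runs are common in worm operons, where a promoter ahead of the first gene can serve the genes behind it. The 5′ end of nfx-1, the first gene of this run, lies 6255 bp upstream of that of znf-622. The window of nfx-1 lies inside the same summit-free interval, so its lack of a summit in all 4 lists is not a separate observation. sbds-1 has the same layout: 108 bases separate it from tag-266, the gene ahead of it on the reverse strand. Both stretches are shown because no list placed a summit in them. They are from chrIII:6381518-6381633 (forward strand) and chrIII:638420-638527 (reverse strand) of ce11, read from the RefSeq genome WBcel235, in the direction of the gene and ending at the base before its annotated 5′ end. Capitals mark TATAAA or TTTCAG on either strand.
znf-622: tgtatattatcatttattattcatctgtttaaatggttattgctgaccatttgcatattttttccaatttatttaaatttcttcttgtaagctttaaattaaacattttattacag
sbds-1: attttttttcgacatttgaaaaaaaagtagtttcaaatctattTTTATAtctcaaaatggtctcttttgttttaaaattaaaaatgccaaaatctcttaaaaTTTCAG
Both are poor in G and C (20.7% and 20.4%). The sbds-1 stretch ends in TTTCAG, a form of the worm 3′ splice site that also accepts spliced leaders, and has a TATAAA on the opposite strand. The znf-622 stretch holds neither word but ends in TTACAG, and the missing TTTCAG does not show that a 3′ splice site is absent there.

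At sbds-1, which encodes the SBDS ribosome maturation protein (chromosome III, 636486 to 638419), the thresholded, replicate 1 and replicate 2 lists had no summit in the window. The pooled list had a single weak peak with its summit at −538 bp, a signal of 17.0 and rank 14185 of 21096. That summit lay in the 3′ untranslated region of tag-266. The nearest thresholded peak was strong by comparison: its summit lay at −2195 bp from sbds-1, with a signal of 176 and rank 410. It stood in the space between tag-266 and tag-267, at −388 bp from the 5′ end of tag-266, the first gene of the run, and at −176 bp from that of tag-267. Replicate 1 had the tag-266 peak with a signal of 105 (rank 155) and replicate 2 with 71.4 (rank 940). A strong peak thus stood ahead of the run that leads to sbds-1, and its nearest 5′ end was that of tag-267, which runs the other way.

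The window of nog-1, which encodes a nucleolar GTPase (chromosome IV, 393880 to 396554), held a peak in every list. The thresholded and pooled lists give it a signal of 136 (rank 730), replicate 1 a signal of 41.96 (rank 1206) and replicate 2 a signal of 87.7 (rank 631). Its summit lay at −290 bp in the pooled call, −287 bp in replicate 1 and −289 bp in replicate 2, so the replicates placed it within 2 bp of each other. The summit stood between genes, at −44 bp from T07A9.15, a homolog of the cytochrome c oxidase assembly protein COX14 that runs in the opposite direction. T07A9.15 was the closer 5′ end, and the peak cannot be assigned to either gene alone.

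The window of nst-1, which encodes the nucleostemin relative (chromosome II, 8281162 to 8283208), held the weakest of the 4 thresholded peaks, and the replicates ranked it far apart. The thresholded signal was 56.4 (rank 2685). Replicate 2 had a signal of 39.3 at rank 2332, with a −log10 q of 3.87. That is the highest value of its list, which 3745 of 30000 peaks share. Replicate 1 had a signal of 11.9 at rank 11669, with a −log10 q of 0.331. Among as many of the strongest peaks as the thresholded list holds, nst-1 was in replicate 2 and not in replicate 1. Only 8.23% of the thresholded peaks ranked as low in replicate 1 or had no summit there within 100 bp. The 3 summits fell between −227 and −236 bp. They lay midway between nst-1 and cct-4, which encodes a subunit of the CCT chaperonin and starts in the other direction at −232 bp from the thresholded summit.

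The bases around the summits of nog-1 and nst-1 are shown as the parts of the 300-base windows, 150 bases to each side, that lie outside annotated genes. They are from chrIV:393547-393739 (forward strand) and chrII:8283285-8283584 (reverse strand) of ce11, from the same RefSeq genome and in the direction of the gene. Capitals mark TATAAA on either strand.
nog-1: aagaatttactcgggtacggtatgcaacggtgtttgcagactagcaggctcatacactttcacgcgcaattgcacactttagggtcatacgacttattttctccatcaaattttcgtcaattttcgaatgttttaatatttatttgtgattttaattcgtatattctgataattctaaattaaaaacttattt
nst-1: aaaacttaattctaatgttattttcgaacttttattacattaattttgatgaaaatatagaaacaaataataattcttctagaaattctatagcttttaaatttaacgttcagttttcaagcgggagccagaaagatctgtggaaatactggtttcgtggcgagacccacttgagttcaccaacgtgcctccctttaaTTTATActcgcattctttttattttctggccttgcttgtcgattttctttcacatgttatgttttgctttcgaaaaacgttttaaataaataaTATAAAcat
In the nst-1 sequence TATAAA occurs on both strands, starting at −85 bp of the gene's strand and at −178 bp on the other. The 193 bases of nog-1 hold none.

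At nmd-3 and eif-6 the peaks ranked higher in replicate 1 than in replicate 2. The window of eif-6 (chromosome I, 12968946 to 12970272), which encodes the anti-association factor, had the highest thresholded signal of the 7 genes, 138 (rank 704), narrowly above nog-1. Replicate 1 gave a signal of 82.5 (rank 315) and replicate 2 a signal of 55.2 (rank 1446). The summits lay at −334, −326 and −327 bp in the thresholded, replicate 1 and replicate 2 lists. The thresholded peak was 142 bp wide against a median of 344 bp in its list. Its summit was at −332 bp from pbs-2, a proteasome subunit gene on the opposite strand, so it stood at the middle of a shared promoter.

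The window of nmd-3 (chromosome I, 7559839 to 7562349), which encodes the export adaptor, held a thresholded peak with a signal of 94.3 (rank 1399). Replicate 1 gave 55.5 (rank 737) and replicate 2 gave 37.7 (rank 2443). The summits lay at −141, −146 and −146 bp. Because nmd-3 begins inside the annotated end of chs-1, a chitin synthase gene on the same strand, these summits lay in an intron of chs-1. A second, weaker summit lay inside the first coding exon of nmd-3, at 61 bp downstream of the 5′ end in the pooled list (signal 22.4, rank 8325) and 55 bp downstream in replicate 1 (20.8, rank 3375). Replicate 2 had no second summit in the window. T25G3.1, which heads the run of T25G3.1, chs-1 and nmd-3, had no thresholded summit in its own window, and its pooled peak was weak (signal 19.9, rank 10275). The main peak near nmd-3 thus stood at the gene itself and not at the head of its run, and no other gene's promoter window held it.

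The window of ngp-1 (chromosome I, 8394726 to 8398626), which encodes the relative of the GTPase Nog2, held no summit in any list. The nearest pooled summit lay 487 bp downstream of the 5′ end, in a coding exon, with a signal of 14.7 (rank 18903 of 21096), and the nearest of replicate 1 lay 583 bp downstream (11.09, rank 13899). The nearest thresholded summit was at −1936 bp (signal 76.7, rank 1850) and that of replicate 2 at −1923 bp (30.1, rank 3222). Further from ngp-1 than their nearest summits, replicate 1 (signal 49.0) and the pooled list (76.7) also had a summit at −1936 bp. These upstream summits lay −32 and −45 bp from T19A6.1, a gene that runs in the opposite direction. The genes are 1967 bases apart, so the thresholded peak stood at the start of T19A6.1 and far from that of ngp-1.

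Set side by side, the 4 thresholded peaks differed between replicates in opposite directions. Of all thresholded peaks, 2996 had a summit within 100 bp in both replicates, and the log2 ratio of replicate 2 to replicate 1 signal had a median of 0.54, with 90% of peaks between −0.56 and 1.81. The ratio was −0.58 at eif-6 and −0.56 at nmd-3, with 4.74% and 5.04% of matched peaks lower. It was 1.06 at nog-1 and 1.72 at nst-1, with 20.6% and 6.24% of matched peaks higher. Thus eif-6 and nmd-3 stood at the low edge of the range, nst-1 near the high edge and nog-1 inside it. With 1 value per replicate these ratios have no error of their own, and whether depth differed between the replicates is unknown.

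**Figure D4:**
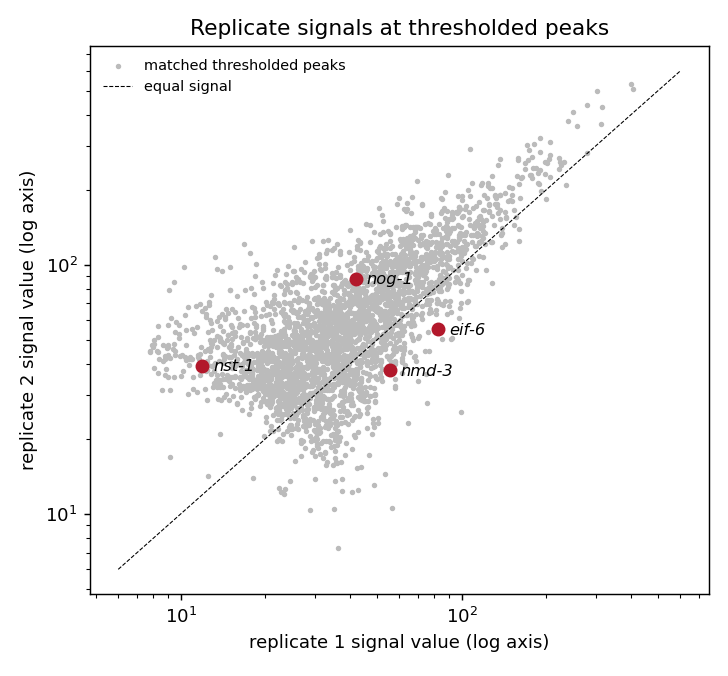
Signal in replicate 1 (x axis) and replicate 2 (y axis), both log axes, at the thresholded peaks matched in both replicates (grey) and at the peaks of nmd-3, eif-6, nog-1 and nst-1 (red); the dashed line marks equal signal. The points of eif-6 and nmd-3 lie below the line and those of nog-1 and nst-1 above it.

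Among all genes with a thresholded summit in the window, the 4 genes were spread. The median over the 2728 such genes of the strongest signal was 98.0. Genes with a higher signal made up 29.8% of them for eif-6, 30.7% for nog-1, 52.6% for nmd-3 and 87.5% for nst-1. The summits of the 4 genes lay between −141 and −334 bp, and the quartiles over all genes with a peak were −396 and −129 bp. So eif-6 and nog-1 were well above the median, nmd-3 near the median and nst-1 in the lowest part, at ordinary positions.

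The 4 summit windows were also poor in G and C for this data set. Over 300 bases centred on the summit the G and C content was 28.3% at eif-6, 30.0% at nst-1, 31.3% at nmd-3 and 34.0% at nog-1. The median over all thresholded windows was 39.0%, with quartiles at 34.7% and 44.7%. All 4 lay below this lower quartile. Windows of 250 bases before to 50 after the 5′ ends of protein-coding genes had a median of 34.3%, with quartiles at 31.3% and 38%. The 4 genes' own windows at the 5′ end held 34.3% at nmd-3, 33.3% at nst-1, 30.7% at nog-1 and 30.0% at eif-6. There nmd-3 was at the median, nst-1 between it and the lower quartile, and nog-1 and eif-6 below the lower quartile. Short words were searched on both strands of the 4 summit windows. None held CACGTG, CTGCGTCT or CCGCCC, where finding none in 4 windows is close to the shares over all peaks. Those words were in 10.3%, 14.2% and 11.4% of all thresholded windows. GAGAGA, found in 44.8% of them, was in that of nog-1, TATAAA (26.3%) in that of nst-1, TTTCAG (31.2%) in that of nmd-3, and TTTTTT (72.0%) in those of nmd-3 and eif-6. Among windows of 250 bases before to 50 after the 5′ ends of protein-coding genes, these words occurred in 5.82% (CACGTG), 3.54% (CTGCGTCT), 7.83% (CCGCCC), 21.8% (GAGAGA), 37.9% (TATAAA), 51.7% (TTTCAG) and 80.1% (TTTTTT). A match describes letters and not a binding site, and a missing match says only that the word is not in the window.

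Of 26 listed symbols for other genes of late maturation and export, 16 matched the annotation, and 12 of these had a thresholded summit against the 13.7% of all protein-coding genes. The strongest were rpl-12 (signal 458), rpl-11.2 (433), rpl-24.1 (269) and rpl-5 (255), all ribosomal protein genes of the large subunit. rpl-24.2, which encodes the assembly factor RLP24, had a signal of 247. Export genes had lower values than these, with 112 at ran-3, the exchange factor of the Ran GTPase, and 94.3 at ran-1, the GTPase itself. The value was 81.1 at xpo-1, the exportin that carries NMD3. Not all ribosomal protein genes of the list were above the export genes: rla-0, which encodes uL10, had 105. rpl-10, whose product joins the subunit late, in the steps that release Nmd3 in yeast, had a signal of 98.1. Genes without a thresholded summit were cdc-48.3, a relative of the yeast ATPase that removes Rlp24, rpl-11.1, rrp-8 and tsr-1. rrp-8 begins inside the end of nog-1 on the same strand, and its pooled peak had a signal of 24.09. Of the 7 ribosomal protein genes in this list 6 had a thresholded summit, and of the other 9 genes, rpl-24.2 among them, 6 had one.

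Nucleolar genes listed for early large-subunit assembly and RNA modification were counted in the same way. They were listed by symbol, and the ribosomal subunit on which each product acts was not checked. Of 35 listed symbols 18 matched, and 9 had a thresholded summit. The highest signals were at lpd-7, the Pescadillo homolog (282), fib-1, the fibrillarin methyltransferase (271), nola-3, a subunit of H/ACA particles (228), and rbd-1 (218). RefSeq describes rbd-1 only as an RRM domain protein. The lpd-7 peak is also that of the ribosomal protein gene rpl-9, whose 5′ end is nearer to it, with the summit at −233 bp from rpl-9 and −286 bp from lpd-7. ddx-10, ddx-27 and ebp-2 were among the 9 without. The list holds ebp-2 and pes-1, which RefSeq describes as a calponin homology domain protein and a forkhead protein, and the partner list holds gtbp-1 and tsr-1, described as a Ras GTPase-activating protein-binding protein and an Xpo1 domain protein. Without these the counts were 9 of 16 and 11 of 14, against the same 13.7% of all protein-coding genes. Of 50 genes named rpl or rla, 42 (84.0%) had a thresholded summit, again against 13.7% of all protein-coding genes. It was 41 of 48 without rpl-24.2 and rpl-42, which RefSeq does not describe as ribosomal proteins. The 42 genes had a median signal of 237 against 114.97 over the 4 late maturation genes with a peak. These groups differ in size and share genes, and no test of the difference between them was made.

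**Figure D5:**
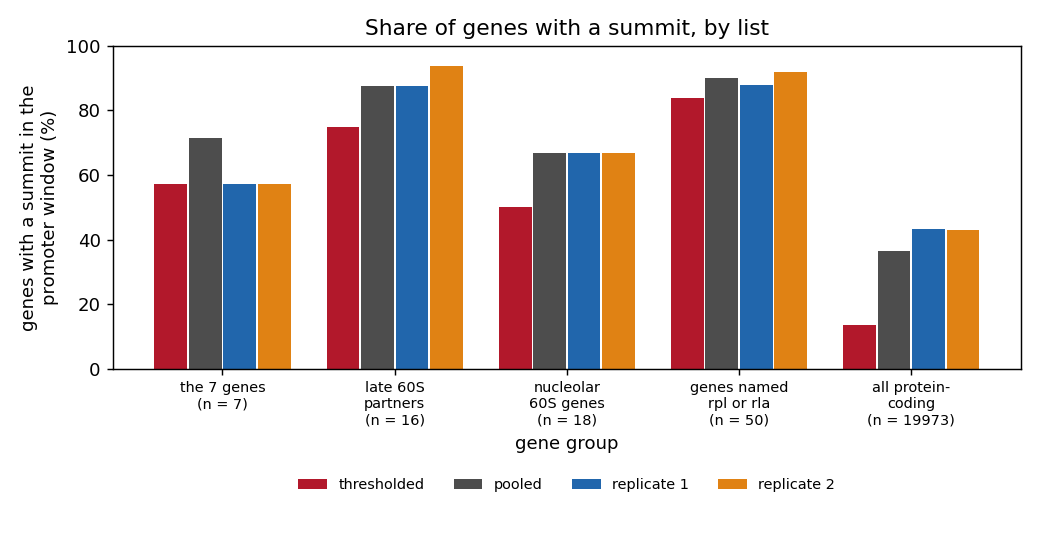
Share of genes (%) with a summit in the promoter window, for the 4 lists (bars) and 5 gene groups, with the number of genes under each group. In the thresholded list the share is 57.1% for the 7 genes, 84.0% for genes named rpl or rla and 13.7% for all protein-coding genes, with 12 of 16 late partners and 9 of 18 nucleolar genes.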

How the data were processed

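Peak lists from 2 replicates were used on the ce11 build. Per the deposited notes, the authors called peaks on each replicate and on both together with a control, and derived the thresholded list from these. Names of the aligner and caller were not given in the sources used here. Deposited by the authors were a signal value per peak, on an unstated scale, and a −log10 q value. Lists on ce10 and read data were not analysed here. Summits are the deposited start plus offset, counted from 1. Python 3.11.15 with pandas 2.3.3 placed them on Ensembl release 115 (WBcel235, the assembly of ce11) and looked up RefSeq product names. The window search was tested on planted peaks. Depth is unknown. The members and lists were chosen with earlier results of these data known, so the report gives counts and values with no test. The 7 members and unc-119 were always named; of each other list up to 4 genes with the highest signal and up to 3 without a peak, and other genes were named after their values were seen. Same-strand runs (gaps up to 500 bp), rps genes and the comparison of summit-free intervals were added after seeing the data. Alternatives were other windows, peak regions, peak centres, transcript 5′ ends and other lists. A planned search for genes most like znf-622 was not made because it has no peak, and no protein sequences were used here.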

Additional observations from a re-analysis of the deposited data

How the results depend on the processing

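The count of 4 genes with a thresholded summit held in 6 of the 9 alternatives. It was 5 with 2000 bp upstream, which adds ngp-1, and the share of all protein-coding genes was then 17.4%. It was 3 with only the thresholded peaks above that list's median signal (8.15% of all protein-coding genes). It was also 3 without replicate 2, with as many of the strongest peaks of replicate 1 (13.3%). Both of the latter lose nst-1. znf-622 and sbds-1 had no thresholded summit under any of the 9 alternatives. In the pooled list the count of 5 ran from 4 in either replicate alone to 6 with 2000 bp upstream. The lists of replicate 1 and replicate 2 had a summit at 43.3% and 42.9% of all protein-coding genes. For the pooled list with 2000 bp upstream that share was not counted. With 500 bp to each side sbds-1 gave way to ngp-1. The counts of the 3 comparison lists stayed within 1.5 times in all their alternatives. The number of all protein-coding genes with a summit, 2728, was 1628 (8.15%) with only the thresholded peaks above the median signal. Of 53 alternative counts this was the only one to move by more than 1.5 times. The peak signals of the members moved in single replicates, whose lists have lower median signals than the pooled list. There was no value for nst-1 without replicate 2. Leaving out gtbp-1 and tsr-1, pes-1 and ebp-2, or rpl-24.2 and rpl-42 was chosen after seeing the data. Unknown depth limits what the absence of a peak shows, and 1 value per replicate gives the ranks no error.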

Other observations

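Beside the interval around znf-622, 4 intervals of 46.7 kb or more held no summit of any of the 4 lists. On chromosome V, positions 2341644 to 2564935 (223 kb) held the 5′ ends of 48 protein-coding genes, and positions 8805152 to 8901928 (96.8 kb) held 28. The intervals on chromosome III, positions 7402966 to 7453848 (50.9 kb), and on chromosome IV, positions 6682371 to 6732012 (49.6 kb), held none. How well reads can be placed in these regions was not analysed here.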
